A study of Mus musculus with 8 samples.

Results

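Hippocampal RNA was examined for 7 genes that make, load, recapture and break down the transmitter GABA or form its metabotropic GABA-B receptor. They are Gad1, Gad2, Slc32a1, Slc6a11, Abat, Gabbr1 and Gabbr2, taken by gene symbol from a table of 46078 gene entries. Each symbol occurred once, and all 7 were among the 15859 genes kept for testing. The Cre group comprised 4 libraries of mice carrying Tg(Camk2a-cre)2Gsc as Cre+/- (also named CamiCre), in which Camk2a regulatory DNA is known to drive Cre recombinase in excitatory forebrain neurons. The WT group comprised 4 libraries of wild-type mice. All mice were 9 weeks old and of the C57BL/6J strain, no agent was given per the labels, and no floxed allele is named in either group. The comparison asks which transcripts differ in animals that carry this Cre line alone. The labels number the libraries within a genotype and do not tie each one to an animal, so p-values measure the spread between these libraries.

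GABA is the main inhibitory transmitter of the adult hippocampus and is made by local interneurons, a minority of neurons that the Camk2a promoter largely spares. Glutamate is decarboxylated to GABA in the interneuron, GABA is pumped into vesicles, and after release it is taken up by transporters on neurons and astrocytes and degraded in mitochondria. GABA-B receptors are obligate pairs of a GABA-binding and a G-protein-coupling subunit. They sit on excitatory neurons, interneurons and glia, and act through inhibitory G proteins, inwardly rectifying potassium channels and calcium channels.

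Gad1, Gad2 and Slc32a1 together define a GABA-releasing neuron, and all lie on chromosome 2, so the DNA before their start sites is shown for this trio. The sequences are the 250 bases before the RefSeq start site (build GRCm38.p6, plus strand, 5′ to 3′). Capitals mark the letters of an Sp1 box, a TATA box, a homeodomain core or an E-box on either strand, each spelled out after the sequences.
Gad1, chr2:70561879-70562128: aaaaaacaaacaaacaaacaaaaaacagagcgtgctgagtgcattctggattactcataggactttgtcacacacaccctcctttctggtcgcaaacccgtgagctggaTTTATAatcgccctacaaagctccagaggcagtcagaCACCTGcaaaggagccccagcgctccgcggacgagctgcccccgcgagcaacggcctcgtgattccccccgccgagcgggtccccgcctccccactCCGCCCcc
Gad2, chr2:22622077-22622326: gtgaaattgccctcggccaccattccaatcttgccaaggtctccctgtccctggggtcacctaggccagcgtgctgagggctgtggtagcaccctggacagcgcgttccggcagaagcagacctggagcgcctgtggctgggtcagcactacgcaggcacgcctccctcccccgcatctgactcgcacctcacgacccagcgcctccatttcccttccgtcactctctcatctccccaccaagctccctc
Slc32a1, chr2:158610508-158610757: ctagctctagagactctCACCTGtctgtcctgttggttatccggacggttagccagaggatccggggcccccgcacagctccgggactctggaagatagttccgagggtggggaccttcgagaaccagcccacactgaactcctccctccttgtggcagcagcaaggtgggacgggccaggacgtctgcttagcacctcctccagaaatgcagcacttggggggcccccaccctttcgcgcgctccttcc

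The letters searched for the Sp1 box were GGGCGG, present in 32.7% of 32851 promoter windows of the same length. The TATA box was searched as TATAAA, which 12.4% of the windows hold. The homeodomain core, a palindrome, was searched as TAATTA and is in 4.84% of the windows. The E-box was searched as CACCTG and is in 17.2% of them. The Gad1 window holds a reversed TATA box that begins 141 bases before the start site, an E-box at 104 bases and a reversed Sp1 box at 8 bases. The Slc32a1 window holds 1 E-box, 233 bases before the start site, and none of these letters occur in the Gad2 window. No match overlaps another. GENCODE M21 begins Gad2 within its window and Gad1 before its window, so the start sites of the annotations differ. The windows had 58% (Gad1), 64% (Gad2) and 62.4% (Slc32a1) G and C, against a median of 52.4% over all windows, and 17, 13 and 12 CG dinucleotides against a median of 6. These matches are a description of the letters. Promoter entries were found for 6 of the 7 genes, the exception being Abat.

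Levels of all 7 genes were close in both genotypes. In the quasi-likelihood test of edgeR, adjusted by Benjamini-Hochberg over the 15859 genes, 0 of 7 passed the threshold of 0.05, against 0.0315% of all genes tested. At an unadjusted p under 0.05 there were also 0 of 7, against 3.5% of all genes, and DESeq2 gave 0 of 7 by either measure. The Cre and WT ranges overlapped in all 7 genes, while they were separate in 2.31% of all genes. The log2 fold change was below 0 in 4 of the 7 and above 0 in 3 (median -0.013), against 49.8% of all genes below 0 (median 0.0004). The adjusted p of all 7 was 0.999 by the same edgeR test. A p above the threshold does not show that levels were equal, so the interval of each difference is given.

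**Figure D1:**
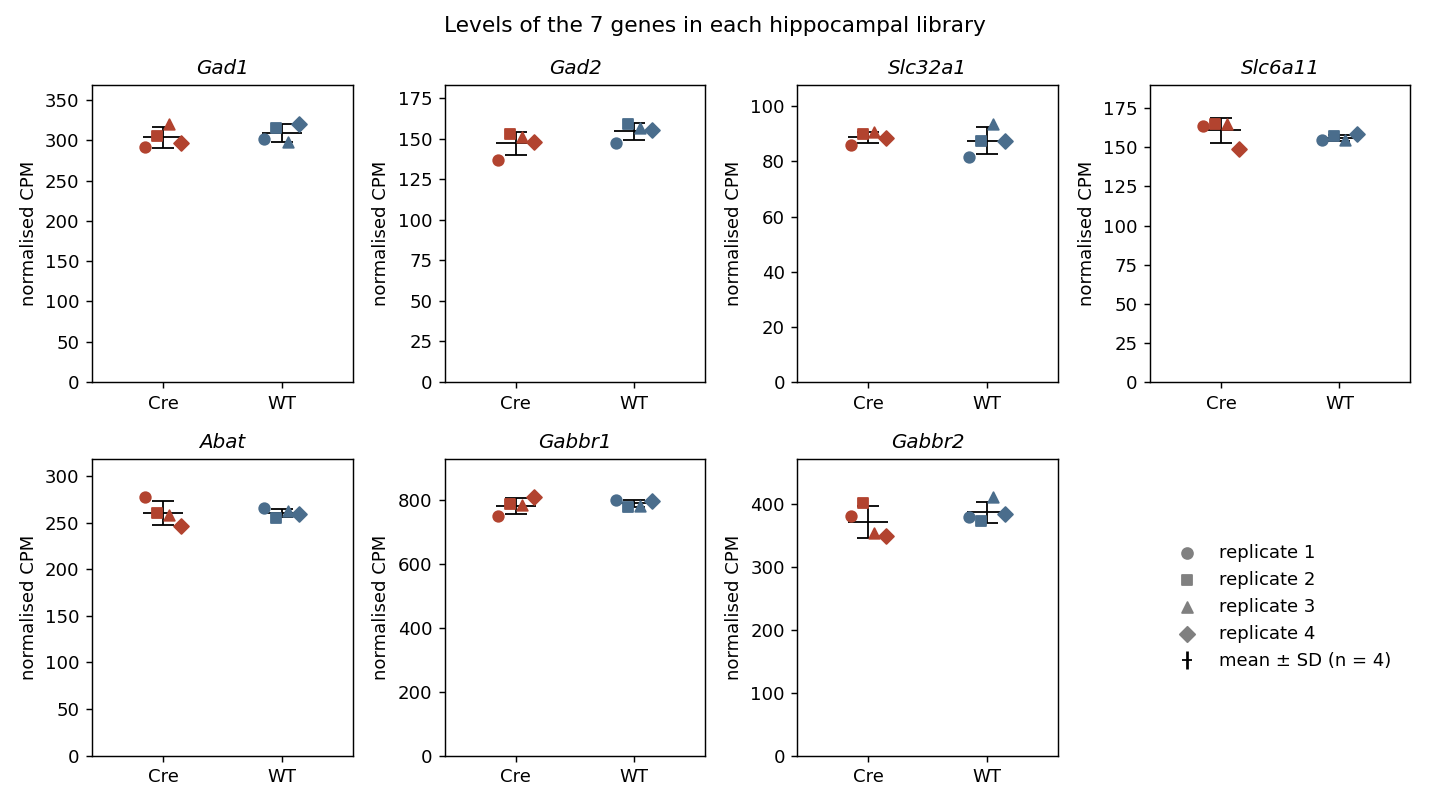
Normalised CPM (counts per 1000000 counts, y axis, starting at 0) of each of the 7 genes in the Cre and WT libraries. Each point is a library, its shape the replicate number, and the bars are the mean ± SD of 4 libraries. The points of both genotypes overlap in every panel, and the Gabbr2 points in Cre run from 348 to 402 CPM, the highest coefficient of variation in any panel at 6.77%.

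Gad1 encodes the GAD67 form of glutamate decarboxylase, the enzyme that supplies most GABA of the brain and is found throughout the interneuron. Its level, in counts per 1000000 normalised library counts (CPM), was 292, 305, 321 and 297 CPM in Cre libraries 1 to 4, and 302, 316, 298 and 321 CPM in WT libraries 1 to 4. The Cre range covered most of the WT range, with Cre library 1 the lowest of all 8 and Cre library 3 as high as the highest WT library. The means were 304 ± 12.6 CPM in Cre and 309 ± 10.9 CPM in WT (SD, n = 4 each), a log2 fold change of -0.026 (SE 0.040). The 95% confidence interval of the change ran from -7.52% to 4.33%, and an exact permutation test on log2 CPM (2-sided) gave p = 0.514.

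Gad2 encodes the GAD65 form, which is anchored at synaptic vesicles and supplies GABA on demand at nerve endings. It was at 137, 153, 151 and 148 CPM in Cre libraries 1 to 4, against 147, 159, 157 and 156 CPM in WT libraries 1 to 4. All but WT library 1 lay above all Cre libraries, and Cre library 1 was again the lowest of the 8. The means were 147 ± 6.99 CPM in Cre and 155 ± 5.28 CPM in WT (SD, n = 4 each), and the log2 fold change of -0.072 (SE 0.044) had the largest size of the 7. Its interval ran from -10.96% to 1.71%, with an unadjusted edgeR p of 0.131 and an exact permutation p of 0.143. Without Cre library 1 the log2 fold change was -0.039. It was -0.089 without Cre library 2 and -0.095 without WT library 1 (unadjusted edgeR p 0.0550 for the latter), with none past the threshold.

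Slc32a1 encodes VGAT, the transporter that loads GABA and glycine into synaptic vesicles. It had 85.9, 89.8, 90.7 and 88.5 CPM in Cre libraries 1 to 4, and 81.7, 87.4, 93.7 and 87.3 CPM in WT libraries 1 to 4. The highest and the lowest library were both WT, and the Cre libraries lay between them. The means were 88.7 ± 2.08 CPM in Cre and 87.5 ± 4.90 CPM in WT (SD, n = 4 each), a log2 fold change of 0.020 (SE 0.046). The interval was -5.36% to 8.62% and the exact permutation p = 0.686. In bulk tissue, a change in the number of interneurons and a change in the RNA of each interneuron cannot be told apart for any of these genes.

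Slc6a11 encodes the GABA transporter GAT-3, which clears GABA mainly into astrocytes. It stood at 164, 165, 165 and 149 CPM in Cre libraries 1 to 4, and at 155, 157, 155 and 159 CPM in WT libraries 1 to 4. Cre libraries 1 to 3 lay above every WT library, and Cre library 4 lay below every WT library. The means were 161 ± 7.72 CPM in Cre and 156 ± 1.94 CPM in WT (SD, n = 4 each), a log2 fold change of 0.042 (SE 0.041) with an interval from -3.26% to 9.52% and an exact permutation p = 0.286. Without Cre library 4 the log2 fold change was 0.077, which did not pass with edgeR either. Beside this, astrocyte markers had fold changes above 0 in 11 of 12 genes, against 7962 of all 15859 genes tested. Their summed level ran from 6850 to 7559 CPM in Cre and from 6381 to 6796 CPM in WT. The glutamate transporter genes Slc1a2 (log2 fold change 0.11) and Slc1a3 (0.093) and the filament gene Gfap (0.37) had an unadjusted edgeR p under 0.05. Of all genes tested, 3.5% did so, and 0 of the 12 markers passed after adjustment. For Slc1a3 the unadjusted edgeR p was 0.0575 without Cre library 3, 0.0592 without WT library 1 and 0.0649 without WT library 3. It stayed under 0.05 without any other single library. Gfap was at 789, 477, 445 and 435 CPM in Cre libraries 1 to 4, against 440, 444, 380 and 402 CPM in WT libraries 1 to 4, and without Cre library 1 its log2 fold change was 0.12 (unadjusted edgeR p 0.0503). Cre library 4 had the lowest astrocyte sum of the Cre libraries, 6850 CPM, which was above that of every WT library. Cre library 2 had a sum of 6915 CPM, with Slc6a11 at 165 CPM. The part of astrocyte content in the Slc6a11 values was not tested.

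Abat encodes GABA transaminase, the mitochondrial enzyme that begins GABA breakdown in neurons and astrocytes. Its levels were 277, 261, 258 and 246 CPM in Cre libraries 1 to 4, against 265, 255, 262 and 259 CPM in WT libraries 1 to 4. The highest and lowest library were both Cre, and the WT libraries fell between them. The means were almost the same, at 261 ± 12.7 CPM in Cre and 260.4 ± 4.43 CPM in WT (SD, n = 4 each), with a log2 fold change of 0.00084 (SE 0.040) and an interval from -5.73% to 6.21%. The difference was far below its standard error, and its sign turned under several of the alternatives given in the closing section.

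Gabbr1 encodes the GABA-B1 subunit, which binds GABA. It was the most abundant of the 7, at 749, 788, 785 and 808 CPM in Cre libraries 1 to 4, and at 800.5, 777, 782 and 798 CPM in WT libraries 1 to 4. Cre library 1 was the lowest and Cre library 4 the highest of the 8, so the WT range lay within the Cre range. The means were 782 ± 24.6 CPM in Cre and 789 ± 11.5 CPM in WT (SD, n = 4 each), a log2 fold change of -0.013 (SE 0.031). The interval, -5.43% to 3.87%, was the narrowest of the 7, and the exact permutation p was 0.686.

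Gabbr2 encodes the GABA-B2 subunit, which brings the receptor to the cell surface and couples it to G proteins. It was at 380, 402, 353 and 348 CPM in Cre libraries 1 to 4, against 378, 373, 410 and 383 CPM in WT libraries 1 to 4. Cre libraries 3 and 4 lay below every WT library, while Cre library 2 lay above all WT libraries but library 3. The means were 371 ± 25.1 CPM in Cre and 386 ± 16.5 CPM in WT (SD, n = 4 each), a log2 fold change of -0.059 (SE 0.049) with an interval from -10.8% to 3.28% and an exact permutation p = 0.286. Without Cre library 2 the log2 fold change was -0.10 and without WT library 3 it was -0.028, neither past the threshold by edgeR. The unadjusted edgeR p was 0.0479 without Cre library 2 (adjusted 0.996).

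The spread between libraries of the same genotype was 2.34% to 6.77% of the mean in Cre and 1.24% to 5.60% in WT (coefficient of variation, n = 4 each). The median standard error of the 7 log2 fold changes was 0.041, against 0.043 over the 2690 genes at least as abundant as Slc32a1. The median size of the log2 fold change, whatever its sign, was 0.026 for the 7 genes and 0.030 for those abundant genes. In the authors' deposited table, the log2 fold changes were -0.025 for Gad1, -0.070 for Gad2, 0.021 for Slc32a1, 0.043 for Slc6a11, 0.0015 for Abat, -0.012 for Gabbr1 and -0.058 for Gabbr2. The lowest p of these in the authors' deposited table was 0.218, for Gad2. That table was made from the same libraries and is not independent.

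Ratios within a library do not depend on its size, and 4 are given here, compared between the genotypes by exact permutation tests (2-sided, n = 4 each, smallest possible p 0.0286), with adjustment over 5 ratios. Gad1 reads exceeded Gad2 reads by a factor of 2.00 to 2.13 in Cre and 1.90 to 2.06 in WT. On the log2 scale this ratio of the enzyme pair differed by 0.046 (SE 0.036; exact p = 0.229, adjusted 0.571), and without WT library 3 by 0.022. Gabbr1 over Gabbr2, the reads of the receptor pair, was 1.96 to 2.32 in Cre and 1.91 to 2.11 in WT, a log2 difference of 0.047 (SE 0.071; exact p = 0.543, adjusted 0.679). This difference was 0.0021 without Cre library 4, 0.013 without WT library 3, 0.023 without Cre library 3, 0.081 without Cre library 1 and 0.084 without Cre library 2, so its size rests on single libraries. In Cre the receptor ratio split, with libraries 1 and 2 at the low end and libraries 3 and 4 at the high end. These factors are ratios of reads and are not corrected for transcript length.

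Slc32a1 over Gad1, vesicle loading beside synthesis, was 0.283 to 0.298 in Cre and 0.271 to 0.314 in WT (log2 difference 0.047, SE 0.053; exact p = 0.429, adjusted 0.679). Without WT library 3, the highest of the 8, the difference was 0.098 (exact permutation p = 0.0571 before adjustment), and without WT library 1 it was 0.026 and without WT library 4 0.029. Abat over Gad1, breakdown beside synthesis, was 0.806 to 0.951 in Cre and 0.807 to 0.880 in WT (log2 difference 0.026, SE 0.063; exact p = 0.829, adjusted 0.829), and without Cre library 1 the difference was -0.023. The ratio of Abat over Gad1 was highest in Cre library 1, where Abat was at its highest and Gad1 at its lowest of the 8 libraries.

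**Figure D2:**
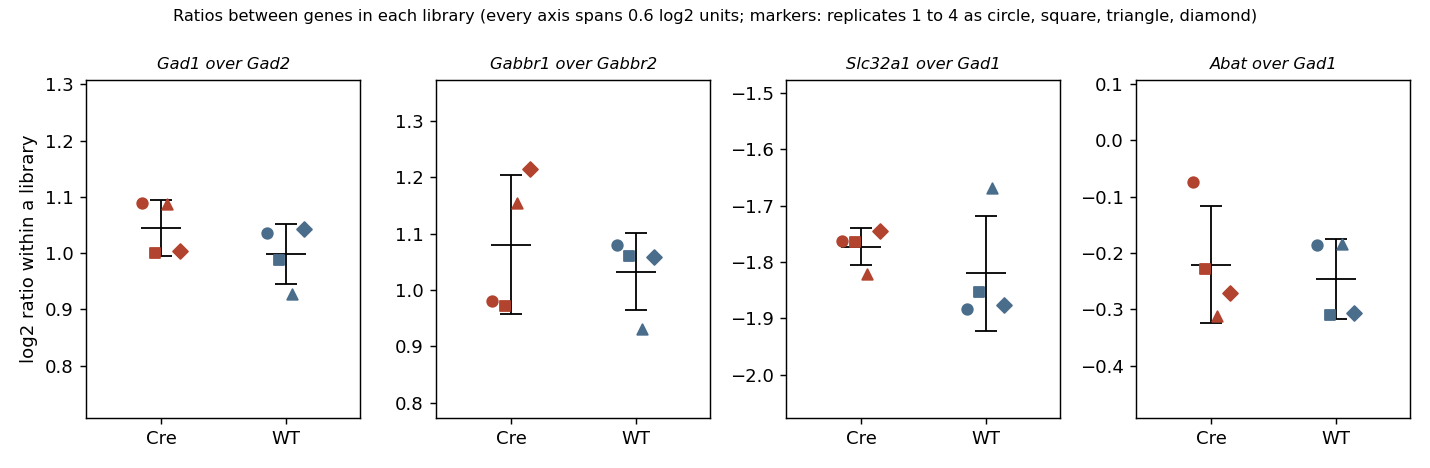
The log2 ratio of the CPM of 2 genes (y axis, each spanning the same range and not starting at 0) in each Cre and WT library. Points are libraries, shaped by replicate number, and bars are the mean ± SD of 4 libraries. The Cre and WT points overlap in all 4 panels, and the Abat over Gad1 ratio is highest in Cre library 1.

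None of the other genes of GABA metabolism passed the test. Of 18 listed genes for synthesis, uptake and breakdown, 17 were tested, 0 rose and 0 fell by edgeR, and 0 had an unadjusted p under 0.05 (DESeq2 called 0 as well). Their median log2 fold change was -0.026, with 7 above 0 and 10 below, against a median of 0.0004 for all genes. The exception from testing was Slc6a12, a betaine and GABA transporter gene with 99 counts over all 8 libraries. Slc6a13, the GAT-2 gene known from meninges and choroid plexus, was low, at 4.39, 3.69, 5.90 and 5.14 CPM in Cre libraries 1 to 4, against 3.78, 9.16, 2.53 and 1.97 CPM in WT libraries 1 to 4. WT library 2 was the highest and also had the highest sum of meningeal markers, 191 CPM, against 90.3 to 113 CPM in Cre and 89.0 to 145 CPM in WT libraries 1, 3 and 4, and the part of meninges in this value was not tested. The log2 fold change of Slc6a13 was 0.13 (SE 0.37), and without WT library 2 it was 0.79 (unadjusted edgeR p 0.00459, adjusted 0.999).

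Aldh5a1, which encodes the dehydrogenase that takes the product of Abat on to succinate, had 113 ± 2.69 CPM in Cre and 110.4 ± 1.49 CPM in WT (log2 fold change 0.04, SE 0.04). Glul, the glutamine synthetase gene of astrocytes in the glutamine cycle that feeds GABA synthesis, stood at 1499 ± 202 CPM in Cre and 1450 ± 108 CPM in WT. The glutamine carrier genes Slc38a1, of neurons, and Slc38a3, of astrocytes, had log2 fold changes of -0.04 (SE 0.04) and 0.10 (SE 0.13).

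All 17 listed genes for GABA-B partners and effectors were tested, and 0 rose, 0 fell and 0 had an unadjusted p under 0.05 (edgeR, with 0 called by DESeq2). The median log2 fold change was -0.004, with 7 above 0 and 10 below. Among the auxiliary subunits that set the kinetics of the receptor response, Kctd12 was the most abundant per library, at 81.7 ± 4.31 CPM in Cre and 81.8 ± 1.72 CPM in WT. Kctd16 had 13.7 ± 2.27 CPM in Cre and 14.6 ± 0.93 CPM in WT, and Kctd8 had 7.02 ± 1.10 CPM in Cre and 7.30 ± 0.66 CPM in WT. The potassium channel genes through which GABA-B receptors hyperpolarise neurons were Kcnj3 (log2 fold change -0.01, SE 0.05), Kcnj6 (0.03, SE 0.09) and Kcnj9 (-0.004, SE 0.06). Gnao1, the gene of the abundant G protein alpha subunit of brain, had 704 ± 28.8 CPM in Cre and 702 ± 13.4 CPM in WT. Gpr158, a receptor gene, had a log2 fold change of -0.04 (SE 0.05).

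**Figure D3:**
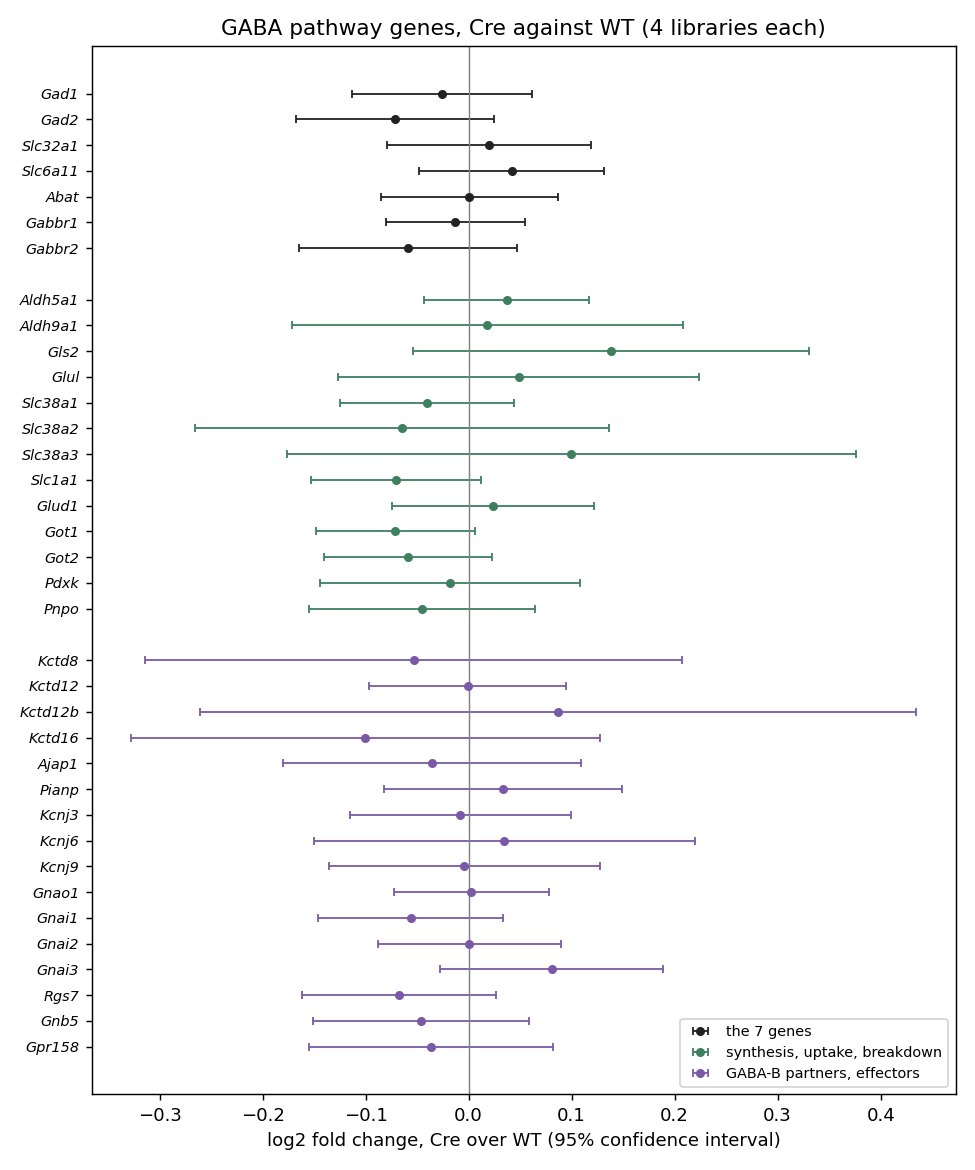
Log2 fold change of Cre over WT (x axis) with its 95% confidence interval for the 7 genes and, below them, for pathway genes of the 2 lists with at least 1000 counts over all 8 libraries. Points are estimates from 4 Cre and 4 WT libraries, coloured by list. Every interval drawn crosses 0.

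Levels were compared between the 7 genes per kilobase of exon, from GENCODE M21 on GRCm38. Over the union of all annotated exons, Gabbr1 had the highest level, at 101 ± 3.17 CPM per kb in Cre and 102 ± 1.48 CPM per kb in WT (SD, n = 4 each). Gabbr2 followed at 55.4 ± 3.75 CPM per kb in Cre and 57.7 ± 2.46 CPM per kb in WT, so the receptor pair led the order. Gad1 came next at 39.7 ± 1.65 CPM per kb in Cre and 40.5 ± 1.43 CPM per kb in WT. Abat (33.6 ± 1.64 CPM per kb in Cre, 33.6 ± 0.57 in WT), Slc6a11 (31.8 ± 1.53 in Cre, 30.9 ± 0.38 in WT) and Slc32a1 (31.7 ± 0.74 in Cre, 31.3 ± 1.75 in WT) formed a close trio. Gad2 was the lowest, at 25.0 ± 1.19 CPM per kb in Cre and 26.3 ± 0.90 CPM per kb in WT. On this length, the ranges over the 8 libraries overlapped between Abat and Slc6a11 and between Slc6a11 and Slc32a1. It therefore does not set the order of these 3. The ranges of the other neighbours did not overlap. The length chosen matters for Gad1, whose exons sum to 7639 bases over 8 transcripts while its principal transcript has 3355. Per kilobase of principal transcript, Gad1 was at 90.5 ± 3.76 CPM in Cre and 92.1 ± 3.26 CPM in WT, above Gabbr2 at 64.4 ± 4.36 CPM in Cre and 67.1 ± 2.86 CPM in WT. Abat, Slc6a11 and Slc32a1 were apart on that length, at 56.2 ± 2.74, 38.9 ± 1.87 and 31.7 ± 0.74 CPM per kb in Cre. In WT they were at 56.2 ± 0.95, 37.8 ± 0.47 and 31.3 ± 1.75 CPM per kb. Their ranges over the 8 libraries did not overlap. On both lengths Gabbr1 was the highest and Gad2 the lowest of the 7.

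The genes lie on 5 chromosomes of GRCm38, none of them chromosome 18, which carries the mouse's own Camk2a gene. Where the Cre transgene sits in the genome was not examined. On chromosome 2 are Gad2 (22622205 to 22693874), Gad1 (70553072 to 70602014) and Slc32a1 (158610767 to 158615748), all on the plus strand. Slc32a1 is the most compact, with 2 exons in 4.98 kb. Slc6a11 spans 118.71 kb of chromosome 6 (114131241 to 114249952, plus strand), Abat 108.14 kb of chromosome 16 (8513429 to 8621568, plus strand) and Gabbr1 29.1 kb of chromosome 17 (37045966 to 37075067, plus strand). Gabbr2 is the longest, at 329.57 kb of chromosome 4 (46662305 to 46991873, minus strand). The strand setting of the counting is not given in the sources used here, so reads of antisense neighbours could be mixed in. Gm14205, an antisense gene that shares 697 exonic bases with Slc32a1, had 28 counts over all 8 libraries, and Gad1os, antisense to Gad1 with no shared exon, had 24. The pseudogene Gad1-ps had 21 counts, against at least 6458 counts of Gad1 in every library.

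Gad1, Gad2 and Slc32a1, the genes known to mark GABA neurons, were set beside 18 interneuron markers that include none of the 7, such as Sst, Pvalb, Vip and Lhx6. All 18 markers were tested, 0 passed and 0 had an unadjusted p under 0.05 by edgeR, DESeq2 called 0 of them, and the median log2 fold change was 0.0076. The summed marker level was 671, 740, 746 and 688 CPM in Cre libraries 1 to 4, and 698, 719, 741 and 739 CPM in WT libraries 1 to 4. Cre library 1 was the lowest, as it was for Gad1 and Gad2. Sst, the somatostatin gene, had 168 ± 24.1 CPM in Cre and 168 ± 9.93 CPM in WT, and Pvalb, the parvalbumin gene, 21.8 ± 2.78 CPM in Cre and 22.1 ± 0.90 CPM in WT.

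Across the 8 libraries, the mean log2 CPM of the interneuron markers had a Pearson r of 0.76 with Slc32a1 (exact permutation p = 0.0257; Spearman rho 0.67, p = 0.0831), 0.74 with Gad2 (p = 0.0341; rho 0.60, p = 0.132) and 0.72 with Gad1 (p = 0.0477; rho 0.76, p = 0.0368). These were the 3 relations with an unadjusted Pearson p under 0.05 among 35 examined, and each had an adjusted p of 0.467 (lowest adjusted Spearman p 0.806). Without the 2 libraries farthest from the median of the gene, r was 0.73, 0.69 and 0.49 in the order given. With both genotypes centred on their own mean, r was 0.78, 0.86 and 0.74. The other 4 genes had r from -0.48 to 0.24 with the same markers. Gad1 and Gad2 had an r of 0.63 with each other (exact permutation p = 0.0823, adjusted 0.519; rho 0.55, p = 0.171; r of 0.77 without the 2 farthest libraries). Gad1 and Slc32a1 had an r of 0.11 (exact permutation p = 0.796, adjusted 0.899; rho 0.12, p = 0.793; r of -0.02 without the 2 farthest libraries).

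**Figure D4:**
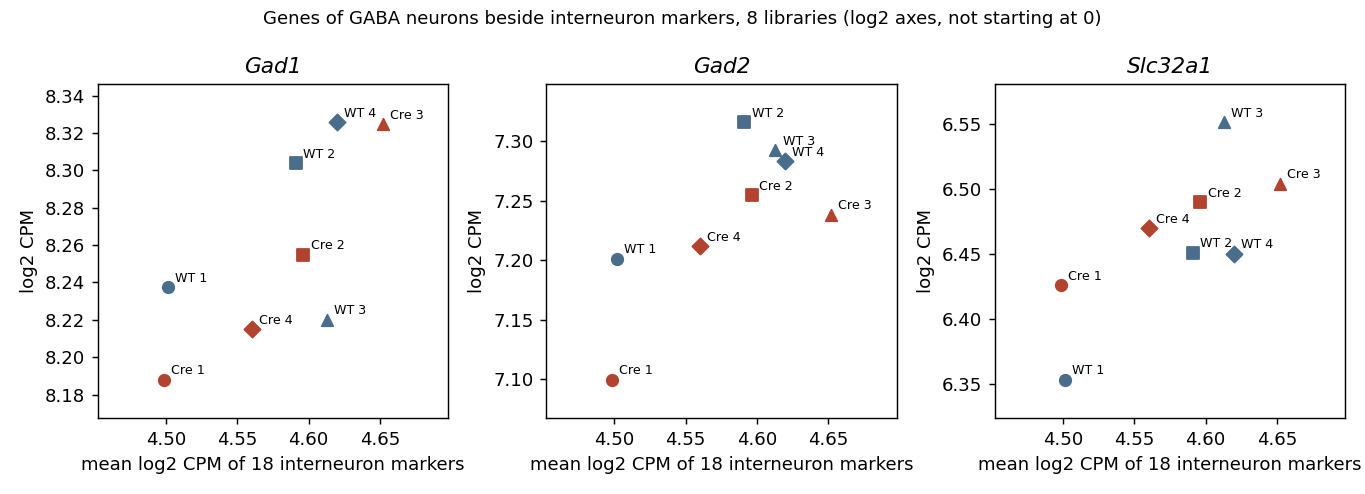
Log2 CPM of Gad1, Gad2 and Slc32a1 (y axes) against the mean log2 CPM of 18 interneuron markers (x axes), with 1 point for each of 8 libraries. Cre library 1 and WT library 1 have the lowest marker means, 4.50 log2 CPM each. Cre and WT libraries are interspersed along the x axes and along the y axes of Gad1 and Slc32a1. In the Gad2 panel, WT libraries 2, 3 and 4 lie above all Cre libraries.

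Slc6a11 had an r of 0.62 with the mean of 12 astrocyte markers (exact permutation p = 0.104, adjusted 0.519; rho 0.48, p = 0.243; r of 0.72 without the 2 farthest libraries). Abat and Gabbr1 had an r of -0.74 (exact permutation p = 0.0534, adjusted 0.467; rho -0.33, p = 0.428), which rested on Cre libraries 1 and 4: without these the r was 0.64. As a description over the 8 libraries, the genes whose log2 CPM was most like each of the 7, among 10529 others with a mean log2 CPM of at least 3, were Aida and Poldip2 for Gad1, Synj2 and Arhgap26 for Gad2, Atg14 and Jmy for Slc32a1, Golga7 and Gatm for Slc6a11, Lta4h and Trim59 for Abat, Timm17a and Sympk for Gabbr1, and Aak1 and Tmem135 for Gabbr2. With 8 libraries and so many candidates, the best matches are high for any gene.

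The libraries held 21339996 to 27826871 counts in Cre and 24289522 to 26950207 in WT, so that each of the 7 genes rested on 1899 counts or more per library. Counting error alone, the inverse square root of the counts, was 0.728% to 2.16% of the level in Cre and 0.705% to 2.12% in WT over the 7 genes. It was close to the coefficient of variation for Slc32a1 in Cre (2.16% against 2.34%) and above it for Slc6a11 in WT (1.58% against 1.24%). All 12 markers of excitatory neurons were tested and their sum ran from 7143 to 7552 CPM in Cre and from 7145 to 7624 CPM in WT, with 0 past the threshold by edgeR or DESeq2 and 0 at an unadjusted edgeR p under 0.05. Prox1 of dentate granule neurons (113 CPM in Cre, 107 in WT) and Fibcd1 of CA1 neurons (220 CPM in Cre, 234 in WT) were both measured in the tissue labelled hippocampus. WT library 1 had 1576 CPM of choroid plexus markers, against 123 to 158 CPM in Cre and 122 to 146 CPM in the other WT libraries, and Cre library 1 had 582 CPM of microglia markers, with 437 to 448 CPM in Cre libraries 2 to 4 and 400 to 434 CPM in the WT libraries. All 12 microglia markers (median log2 fold change 0.21) and all 12 oligodendrocyte markers (0.11) were above 0 and 0 passed by edgeR or DESeq2, and those with an unadjusted edgeR p under 0.05 included Csf1r, C1qb, C1qc, Ctss, Tmem119, Mobp and Mal. Over all 15859 genes tested, 7962 were above 0 and 3.5% had an unadjusted edgeR p under 0.05. Median log2 fold changes of the other marker lists were 0.030 for oligodendrocyte precursors, -0.010 for endothelium and mural cells, -0.31 for meninges, 0.098 for thalamus and habenula (with Lef1 at an unadjusted p under 0.05) and -2.44 for choroid plexus (with Ttr, Kl, Clic6 and Aqp1). Without Cre library 1, the log2 fold changes were 0.10 for Csf1r, 0.20 for C1qb, 0.14 for C1qc, 0.11 for Ctss and 0.13 for Tmem119. The first 4 of these kept an unadjusted edgeR p under 0.05 (0.0272, 0.00301, 0.0338 and 0.0281), and Tmem119 did not (0.0863). Mobp and Mal were at 0.13 and 0.11 without Cre library 1 (unadjusted edgeR p 0.0614 and 0.105), and at 0.14 each without WT library 1 (0.0611 and 0.0867). The log2 fold changes without WT library 1 were 0.39 for Ttr, -0.14 for Kl, 0.67 for Clic6 and 0.55 for Aqp1. Their unadjusted edgeR p in that fit was 0.482, 0.0883, 0.131 and 0.432. Without WT library 4 the log2 fold change of Lef1 was 0.20 (unadjusted edgeR p 0.136). Without WT library 1 the log2 fold changes of the 7 genes ran from -0.095 to 0.037, and without Cre library 1 from -0.071 to 0.035, with none past the threshold by edgeR. Sums for striatum and septum, other sources of GABA neurons, ran from 126 to 146 CPM in Cre and from 132 to 137 CPM in WT. Chat, the cholinergic marker of those regions, had 20 counts over all 8 libraries.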

How the data were processed

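Poly(A) RNA of hippocampus was sequenced from 4 Cre and 4 WT libraries, with directional library preparation and paired-end reads of 150 bases in a single lane, per the labels' protocols. The authors deposited raw whole-number counts per gene symbol. STAR 2.6.1d, featureCounts, edgeR 3.11 and GRCm38 are named per the submitters' processing notes, without the annotation or the strand setting used. A second deposited table gives the authors' comparison per gene as log2 fold change, signed fold score, average abundance and p-value, and whether that p is adjusted is not stated.

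The 7 genes and all lists were chosen with earlier results of these data known. Counts were filtered with filterByExpr (minimum count 10, minimum total 15), leaving 15859 genes, and scaled with TMM. Cre was compared with WT in the quasi-likelihood framework of edgeR 4.0.16 (R 4.3.3), 2-sided and with no covariate, adjusted over all genes by Benjamini-Hochberg. Standard errors and 95% intervals came from the same fit, with the coefficient before shrinkage. Log2 CPM used a prior count of 2. The script was tested on simulated data. Alternatives used DESeq2 1.42.0, limma 3.58.1, other scalings and filters, the replicate number as a block, and each library left out. Named genes were the 7, the main pathway genes of 2 lists, markers at an unadjusted p under 0.05 beside a result, and the 2 genes most like each of the 7. Same-group libraries differed beyond counting noise (chi-square per degree of freedom 3.41 to 10.1), so all 8 were kept as separate. Every count had a gene name. Promoter sequences are from RefSeq (GRCm38.p6) and gene spans from GENCODE M21 (GRCm38). Some genes of the lists and 1 of the 5 ratios are not reported here.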

Additional observations from a re-analysis of the deposited data

Results flagged for a closer look

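In 6 of 50 groups of 4 libraries examined, a library stood apart by its gap to the nearest other library relative to the whole range. Chance marks about 1 in 20 such groups. Slc6a11 in Cre library 4 was 149 CPM, with Cre libraries 1 to 3 at 164 to 165 CPM. The log2 ratio of Gabbr1 over Gabbr2 in WT library 3 was 0.93, against 1.06 to 1.08 in the other WT libraries, with Gabbr2 at its highest of the 8 libraries there. The log2 ratio of Slc32a1 over Gad1 in the same library was -1.67, against -1.88 to -1.85 in the other WT libraries, with Slc32a1 at its highest of the 8.

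The remaining flagged values concern marker sums. Microglia markers summed to 582 CPM in Cre library 1 and to 437 to 448 CPM in Cre libraries 2 to 4. Oligodendrocyte markers summed to 4124 CPM in WT library 1, against 4501 to 4574 CPM in the other WT libraries. Choroid plexus markers summed to 1576 CPM in WT library 1, against 122 to 146 CPM in the other WT libraries. Their part in the values of the 7 genes was not tested, and the fold changes without either library are given in the report.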

How the results depend on the processing

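Under 15 alternatives for each of the 7 genes, 0 of 105 values passed the threshold, and 97 kept their direction. The 8 that turned were all within 1 standard error of 0. Abat, at 0.00084 in the report, was -0.0027 with no filter on low counts, -0.00039 with limma voom and -0.00017 with the replicate block, and without a single library it ran from -0.030 to 0.028. The Abat difference in the exact permutation test was -0.00024 with TMM-scaled CPM and 0.0059 with CPM that had no TMM factors. Slc32a1 ran from -0.012 (without WT library 1) to 0.055 and Gabbr1 from -0.028 to 0.0079 (without Cre library 1) over the fits that left out 1 library. The log2 ratio of Abat over Gad1 ran from -0.023 (without Cre library 1) to 0.056, that of Gabbr1 over Gabbr2 from 0.0021 to 0.084 and that of Slc32a1 over Gad1 from 0.026 to 0.098. Gad1, Gad2 and Gabbr2 stayed below 0 and Slc6a11 above 0 in all 15 alternatives. The number of all genes past the threshold ran from 4 to 7 (5 in the report), with 6 under the replicate block, and 0 of the 34 pathway genes tested passed in any of the 15 fits. The deviations of same-numbered libraries correlated at 0.20, -0.11, 0.02 and 0.02 across genes. Libraries of different numbers were not set beside these, so the values cannot decide whether the numbers pair the libraries. With the replicate block, Gad2 was at -0.072 (SE 0.038, unadjusted edgeR p 0.0837). Slc6a13, examined after its values were seen, ran from -0.11 (without WT library 4) to 0.79 (without WT library 2), with -0.055 without WT library 3, and Gfap, likewise added, from 0.12 to 0.45. The widest interval of the 7 genes, that of Gabbr2, ran from -10.8% to 3.28%, and counting error was close to or above the spread of a genotype for Slc32a1 and Slc6a11. The cause of the turned signs was not tested.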
